A study of Mus musculus with 6 samples.

Results

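The genes described here write, keep, remove or read DNA methylation, or encode the heterochromatin protein HP1. They are Dnmt1, Uhrf1, Dnmt3a, Dnmt3b, Tet1, Mbd1, Cbx1, Cbx3 and Cbx5. They were chosen by name, and their probe sets are those that the platform annotation gives to 1 of these genes alone. That gave 32 of 45037 probe sets and 9 of 18193 genes. RNA came from dorsal telencephalon, from which the cerebral cortex forms, of mouse embryos at E14.5. The cKO group holds 3 arrays of embryos labelled as knockouts of the histone methyltransferase ESET, made with Emx2Cre, and the WT group holds 3 wild-type arrays. All 6 embryos were labelled male and C57BL\6. ESET is the protein of Setdb1, and the comparison asks which transcripts differ between these genotypes in the developing cortex. Emx2 is known as a gene of dorsal forebrain progenitors, and the dissection can also hold blood, vessels and other cells. Where Cre acted was not measured here. The sources used here do not say whether the WT embryos carried Cre or an unrecombined Setdb1 allele. In such bulk tissue, fewer cells of a type and less RNA per cell cannot be told apart.

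DNA methylation in mammals sits mostly on cytosines that precede guanines (CpG). Dnmt3a and Dnmt3b place new methyl groups, while Dnmt1, guided by Uhrf1 to newly replicated DNA, copies the pattern after each cell division. Tet1 oxidises methylated cytosine, a step toward its loss, and Mbd1 binds methylated CpG. The HP1 proteins, HP1 beta from Cbx1, HP1 gamma from Cbx3 and HP1 alpha from Cbx5, bind histone H3 that is methylated at lysine 9, the mark that Setdb1 writes. In human cells MBD1 is known to associate with SETDB1 and with ATF7IP. In mouse, germ cell genes with CpG-rich promoters are well-known targets that DNA methylation keeps silent outside the germ line.

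The promoters of these genes are themselves mostly rich in CpG. RefSeq (GRCm38.p6) windows of 300 bases, from 250 before to 50 after an annotated start, were at hand for 8 of the 9 genes, with 15 starts. Mbd1 was not matched. The 15 windows held 2 to 47 CpG, with a median of 29, and 14 of them were at or above 7, the median over 32851 windows of all genes. Dnmt1 spans the contrast, with 2 CpG at its most upstream start and 33 at another. Both are shown with Dnmt3b, which had the highest log2 fold change of the 9 genes, and with Ddx4, a germ cell gene of the target list described below. CpG is in capitals.
Dnmt1, chr9:20959839-20960138, minus strand, 2 CpG: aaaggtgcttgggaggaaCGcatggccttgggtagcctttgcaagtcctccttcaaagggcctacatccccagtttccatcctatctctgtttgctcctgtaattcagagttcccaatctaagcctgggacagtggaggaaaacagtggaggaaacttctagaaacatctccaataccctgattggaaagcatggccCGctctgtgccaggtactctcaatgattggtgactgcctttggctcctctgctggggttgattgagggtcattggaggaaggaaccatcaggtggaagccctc
Dnmt1, chr9:20952574-20952873, minus strand, 33 CpG: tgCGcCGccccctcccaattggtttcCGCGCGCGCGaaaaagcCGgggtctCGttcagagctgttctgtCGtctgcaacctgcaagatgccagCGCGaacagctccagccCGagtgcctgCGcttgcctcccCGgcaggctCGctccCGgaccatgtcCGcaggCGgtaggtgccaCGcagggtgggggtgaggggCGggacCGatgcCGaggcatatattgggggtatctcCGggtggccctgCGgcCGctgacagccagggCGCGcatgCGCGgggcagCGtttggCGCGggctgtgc
Dnmt3b, chr2:153649199-153649498, plus strand, 30 CpG: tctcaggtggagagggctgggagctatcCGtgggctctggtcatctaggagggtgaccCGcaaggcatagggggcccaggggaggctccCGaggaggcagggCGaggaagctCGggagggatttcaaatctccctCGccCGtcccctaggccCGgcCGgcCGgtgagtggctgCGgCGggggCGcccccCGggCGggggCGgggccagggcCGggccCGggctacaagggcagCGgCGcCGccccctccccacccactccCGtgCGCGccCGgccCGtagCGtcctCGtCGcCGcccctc
Ddx4, chr13:112652261-112652560, minus strand, 38 CpG: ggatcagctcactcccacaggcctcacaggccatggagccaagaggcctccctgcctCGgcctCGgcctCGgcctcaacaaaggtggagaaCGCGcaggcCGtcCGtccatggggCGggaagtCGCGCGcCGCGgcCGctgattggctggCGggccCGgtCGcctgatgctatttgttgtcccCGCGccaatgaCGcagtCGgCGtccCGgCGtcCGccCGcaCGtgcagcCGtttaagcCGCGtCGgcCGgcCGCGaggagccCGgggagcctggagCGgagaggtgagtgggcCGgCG
The Ddx4 window has more CpG than 95% of all windows and that of Dnmt3b more than 88.3%. The CpG-poor Dnmt1 window has more than 14.1%. The 24 windows of the germ cell list held 3 to 38 CpG, with a median of 20, so the Ddx4 window is the highest of them. The arrays measured RNA, so the methylation of these sequences is not known here, and the probe sets were not assigned to a start.

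Values are array intensities in the authors' units. Fold changes are differences of group means of log2(intensity + 16), cKO minus WT, with the standard error (SE) of a limma fit over all 45037 probe sets. The 95% interval of each is given as a ratio, and adjusted p values are Benjamini-Hochberg over the same table. On the brightest Setdb1 probe set (1451833_a_at) intensities were 704, 696 and 500 in cKO, against 1162, 1185 and 1033 in WT. The groups did not overlap, with a log2 difference of -0.83 (SE 0.18, adjusted p = 0.237), or -0.73 without the arrays numbered 3. The other 2, 1458215_at without overlap and 1416670_at with it, were at -1.14 and -0.44. Both were below the array median on every array, so their fold changes depend on the added 16. The first read 10.6, 23.8 and 34.2 in cKO, against 56.5, 70.3 and 74.8 in WT. The sources used here do not name the deleted exons, so these probe sets may lie outside them. Of 15 genes listed for dorsal telencephalon 14 were measured, with summed intensities of 62975 to 72788 in cKO and 68593 to 73813 in WT. Limma called 0 of them. At an unadjusted p under 0.05, 3 were lower and 0 higher in cKO, against 8.54% of all genes in either direction. Without overlap, 3 lay lower (Emx2, Eomes and Fezf2) and 2 higher (Nes and Neurog2), against 15.5% of all genes. Emx2, the gene that drives Cre, read 674, 647 and 743 in cKO, against 1197, 1129 and 1395 in WT (adjusted p = 0.142). Eomes read 2783, 3192 and 3404 in cKO, against 4689, 4707 and 5062 in WT. Of 10 endothelium and pericyte genes limma called 0, where 0.374% of all genes passed. At an unadjusted p under 0.05, 5 of them were lower and 0 higher in cKO, against 8.54% of all genes in either direction. The same count, 5, lay lower without overlap, against 15.5% of all genes without overlap. Their median log2 fold change was -0.31, with sums of 2149 to 2243 in cKO and 2832 to 3239 in WT, and their part in the results below was not tested. Of 9 ventral telencephalon genes limma called 0. At an unadjusted p under 0.05, 2 of the 9 were higher and 0 lower in cKO, against the same 8.54% of all genes. Without overlap, 3 lay higher and 0 lower, against the same 15.5%. The median log2 fold change of this ventral list was 0.19, or 0.35 without both arrays numbered 3. The part of this list was not tested either. The arrays numbered 3 stood apart. Xist, the RNA of the inactive X chromosome, read 8811 on cKO 3 and 17294 on WT 3 despite the male label, and at most 59.0 on the other arrays. Y-linked Eif2s3y read 961 on cKO 3 and 22.2 on WT 3, and 1927 to 2186 on the others, so cKO 3 carried signal of both kinds and WT 3 hardly any Y-linked signal. Kdm5d, also Y-linked, read 663 on cKO 3 and 10.2 on WT 3. The sum of 11 erythroid genes was 74400 on cKO 3 and 69761 on WT 3, and between 11332 and 17280 on the other arrays. Results below are therefore also given without both arrays numbered 3.

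None of the methylation and HP1 probe sets passed the threshold of 0.05 on the limma adjusted p, 0 of 32 in either direction, where 0.275% of all probe sets did (0.224% higher and 0.0511% lower in cKO). The lowest adjusted p was 0.532, for Dnmt3b. At an unadjusted p under 0.05 there was 1 of 32, higher in cKO, against 7.9% of all probe sets. Log2 fold changes lay between -0.41 and 0.52, 15 above 0 and 17 below, with a median of -0.01 against 0.02 over all probe sets. The groups did not overlap on 6 of 32 probe sets, or 18.8%, where 13.5% of all probe sets behaved so (7.47% higher and 6.07% lower in cKO). The 6 were 2 of Dnmt1, lower in cKO, and 2 of Dnmt3a, 1 of Dnmt3b and 1 of Cbx1, higher in cKO. In the fit without both arrays numbered 3, 0 of 32 passed (lowest adjusted p = 0.612), with 0 at an unadjusted p under 0.05. In that fit 13 of the positive and 14 of the negative fold changes kept their sign.

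**Figure D1:**
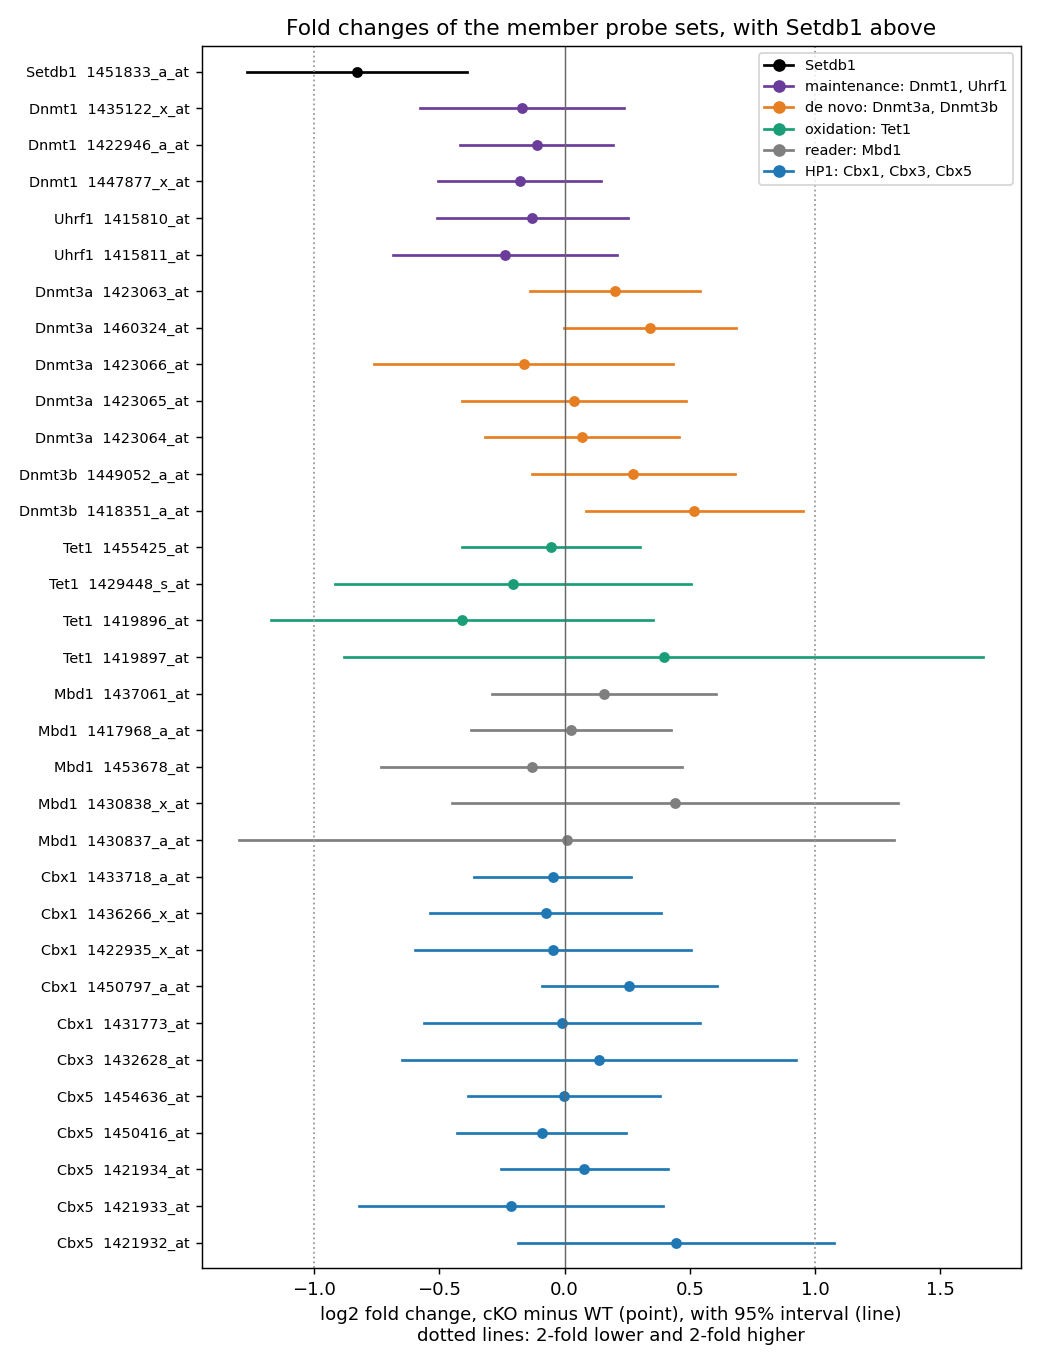
Log2 fold change of every probe set (points, cKO minus WT) with its 95% interval (lines), coloured by role, with the brightest Setdb1 probe set at the top. Member points lie between -0.41 and 0.52, and 27 of 32 intervals stay inside the dotted lines at a 2-fold change.

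A p above the threshold does not show that the groups are alike, so the intervals state what these arrays can bound. The 95% intervals of 27 of the 32 probe sets lay within a 2-fold change in either direction, and those of 15 within a 1.5-fold change. On the brightest probe set of each gene, all 9 intervals lay within 2-fold and 6 within 1.5-fold. The 5 that reached further were 1419896_at and 1419897_at of Tet1, 1430838_x_at and 1430837_a_at of Mbd1 and 1421932_at of Cbx5. All but the first of these were below the array median on all 6 arrays. The median half-width of the intervals was 0.44 on the log2 scale.

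The maintenance genes Dnmt1 and Uhrf1 had fold changes below 0 on each of their 5 probe sets, all short of the threshold. Dnmt1, the maintenance methyltransferase, read 2910, 2835 and 2781 in cKO on 1422946_a_at, against 3128, 2996 and 3088 in WT. Every cKO array lay below every WT array, by a small margin. The log2 fold change was -0.11 (SE 0.13, adjusted p = 0.939), with an interval of 0.749- to 1.14-fold. On 1447877_x_at the intensities were 1332, 1407 and 1377 in cKO, against 1593, 1435 and 1647 in WT. The groups again did not overlap, although cKO 2 and WT 2 nearly met, and the log2 fold change was -0.18 (SE 0.14, adjusted p = 0.874). These 2 probe sets were at -0.09 and -0.14 without both arrays numbered 3. The brightest Dnmt1 probe set, 1435122_x_at, read 3378, 3144 and 2481 in cKO, against 3334, 3581 and 3146 in WT. Here the groups overlapped, cKO 3 stood below all others, and the log2 fold change of -0.17 became -0.08 without both arrays numbered 3.

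Uhrf1 binds half-methylated CpG behind the replication fork and brings in Dnmt1. On 1415810_at it read 1964, 1821 and 1741 in cKO, against 2296, 2036 and 1745 in WT. WT 3 was as low as the cKO arrays, so the groups overlapped, with a log2 difference of -0.13 (SE 0.16, adjusted p = 0.949). On 1415811_at it read 368, 297 and 382 in cKO, against 376, 370 and 502 in WT. These also overlapped, and the log2 fold change of -0.24 (SE 0.19) became -0.17 without both arrays numbered 3, where the first was at -0.19. WT 3 was the lowest WT array on the first probe set and the highest on the second.

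Beside them stood a list of S phase and proliferation genes, to which Dnmt1 and Uhrf1 do not belong. Of its 19 measured genes 17 had a fold change below 0, with a median of -0.17 against 0.01 over all genes. Their summed intensity was 45802 to 50066 in cKO and 52015 to 53451 in WT, and without both arrays numbered 3 the median was also -0.17. In this list limma called 0 genes, where 0.374% of all genes passed on their brightest probe set. At an unadjusted p under 0.05 there was 1 gene, lower in cKO, against 8.54% of all genes. That was Ccne2, a cyclin of S phase entry, with 377, 398 and 450 in cKO, against 576, 679 and 663 in WT (log2 fold change -0.63, adjusted p = 0.277). The groups did not overlap for 5 of the 19, all lower in cKO, where 15.5% of all genes had no overlap. Birc5, a survivin gene of dividing cells, had no overlap, at -0.31. The groups overlapped for Rrm1, a subunit of ribonucleotide reductase, at -0.36, and for Cdc6, which loads the replicative helicase, at -0.45. The part of this list in the Dnmt1 and Uhrf1 values was not tested.

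The de novo enzymes had fold changes above 0 on 6 of 7 probe sets, also short of the threshold. These too are repeated readings of the same arrays. Dnmt3b, the de novo enzyme of early embryos, read 158, 202 and 216 in cKO on 1418351_a_at, against 138, 109 and 140 in WT. The groups did not overlap. The log2 fold change of 0.52 (SE 0.18) had an unadjusted p of 0.026 and an adjusted p of 0.532, with an interval of 1.06- to 1.93-fold. It was the only interval of the 32 that lay wholly on one side of 1. On the brighter probe set, 1449052_a_at, Dnmt3b read 350, 358 and 306 in cKO, against 322, 233 and 280 in WT. There the groups overlapped, since WT 1 was above cKO 3, with a log2 difference of 0.27 (SE 0.17, adjusted p = 0.825). Without both arrays numbered 3 the values were 0.49 and 0.35, with adjusted p of 0.677 and 0.786.

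Dnmt3a, the main de novo methyltransferase of developing neurons, has 5 probe sets, and their fold changes had both signs. On the brightest, 1423063_at, it read 1832, 1935 and 1900 in cKO, against 1762, 1472 and 1698 in WT. On 1460324_at it read 1016, 1117 and 1072 in cKO, against 849, 762 and 915 in WT. Both had every cKO array above every WT array, with log2 fold changes of 0.20 (SE 0.14, adjusted p = 0.859) and 0.34 (SE 0.14, adjusted p = 0.634). Without both arrays numbered 3 they were 0.22 and 0.40. The other Dnmt3a probe sets overlapped between the groups. On 1423066_at the intensities were 763, 566 and 751 in cKO, against 870, 553 and 951 in WT, with a log2 difference of -0.16 (SE 0.25). On 1423065_at they were 701, 571 and 602 in cKO, against 569, 523 and 748 in WT, with a log2 difference of 0.04 (SE 0.19). On 1423064_at they were 322, 262 and 308 in cKO, against 323, 272 and 254 in WT, with a log2 difference of 0.07 (SE 0.16). For each of these last 3, the highest WT array was at or above the highest cKO array.

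**Figure D2:**
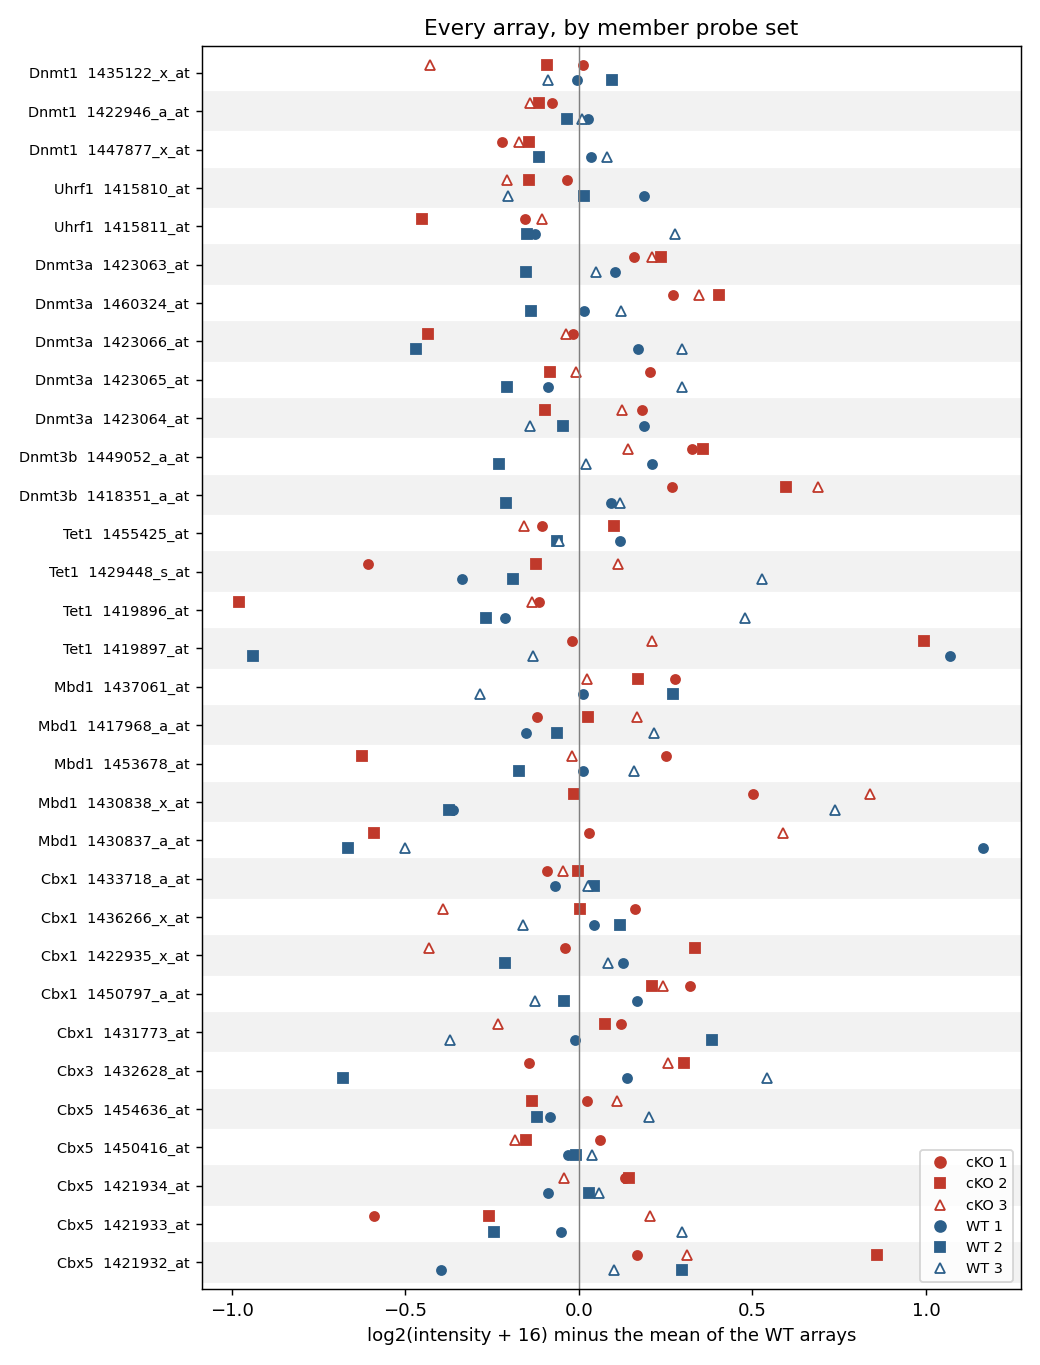
Each row is a probe set and each symbol an array, as log2(intensity + 16) minus the mean of the WT arrays, with cKO in red above WT in blue and arrays numbered 3 open. The symbols part by colour on 6 of 32 rows, among them Dnmt3a 1460324_at and Dnmt3b 1418351_a_at, and the widest scatter is on dim probe sets of Tet1 and Mbd1.

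Tet1, the oxidising enzyme, showed no common direction. Its brightest probe set, 1455425_at, read 1053, 1217 and 1014 in cKO, against 1233, 1086 and 1090 in WT, with a log2 difference of -0.05 (SE 0.15, adjusted p = 0.987). The groups overlapped, the interval was 0.753- to 1.23-fold, and the value without both arrays numbered 3 was -0.03. On 1429448_s_at it read 399, 564 and 668 in cKO, against 484, 538 and 896 in WT, with a log2 difference of -0.21 (SE 0.30). On 1419896_at it read 208, 107 and 204 in cKO, against 193, 185 and 321 in WT, with a log2 difference of -0.41 (SE 0.32). On both the array numbered 3 was the highest of the WT group, and without the arrays numbered 3 the values were -0.10 and -0.31. The fourth probe set, 1419897_at, ran from 23.3 to 63.2 in cKO and from 4.76 to 67.6 in WT, too dim and scattered to bound a change.

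Mbd1, the methyl-CpG reader, had 2 probe sets above the array median and 3 below it on every array. On the brightest, 1437061_at, it read 958, 888 and 800 in cKO, against 794, 952 and 644 in WT, with a log2 difference of 0.16 (SE 0.19, adjusted p = 0.944). On 1417968_a_at it read 694, 770 and 851 in cKO, against 679, 723 and 881 in WT, with a log2 difference of 0.02 (SE 0.17, adjusted p = 0.999). The groups overlapped on both, and the intervals were 0.817- to 1.52-fold and 0.771- to 1.34-fold. They were at 0.08 and 0.06 without both arrays numbered 3. The 3 dim probe sets, 1453678_at, 1430838_x_at and 1430837_a_at, had log2 fold changes of -0.13, 0.44 and 0.01. The last moved to -0.53 without both arrays numbered 3.

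The groups did not overlap on 1 of 11 HP1 probe sets, where 13.5% of all probe sets had no overlap. Cbx1, for HP1 beta, read 5523, 5880 and 5701 in cKO on its brightest probe set, 1433718_a_at, against 5612, 6065 and 5999 in WT. The groups overlapped, with a log2 difference of -0.05 (SE 0.13, adjusted p = 0.987) and an interval of 0.779- to 1.20-fold. On 1436266_x_at it read 3562, 3190 and 2420 in cKO, against 3279, 3453 and 2841 in WT, with a log2 difference of -0.08 (SE 0.19). On that probe set the array numbered 3 was the lowest of each group. On 1450797_a_at it read 140, 128 and 132 in cKO, against 124, 105 and 98.3 in WT. It is the only HP1 probe set without overlap, at 0.26 (SE 0.15, adjusted p = 0.784), and the other 4 Cbx1 probe sets had fold changes below 0. Of these, 1422935_x_at and 1431773_at were at -0.05 and -0.01. Without both arrays numbered 3 the value was -0.03 for 1433718_a_at and 0.20 for 1450797_a_at, while 1422935_x_at turned to 0.19.

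Cbx5, for HP1 alpha, read 4462, 3992 and 4737 in cKO on 1454636_at, against 4144, 4036 and 5054 in WT. The groups overlapped almost fully, with means of 4397 ± 377 in cKO and 4411 ± 559 in WT (SD, n = 3 each) and an interval of 0.766- to 1.30-fold. The log2 fold change was 0.05 without both arrays numbered 3. On 1450416_at it read 822, 706 and 692 in cKO, against 770, 783 and 809 in WT, with a log2 difference of -0.09 (SE 0.14). On 1421934_at it read 361, 363 and 318 in cKO, against 307, 334 and 341 in WT, with a log2 difference of 0.08 (SE 0.14). The groups overlapped on these as well. The dimmer 1421933_at and 1421932_at were at -0.21 (SE 0.25) and 0.45 (SE 0.26), with overlap, and the second was below the array median on every array.

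Cbx3, for HP1 gamma, has 1 probe set of its own, 1432628_at, with 96.7, 138 and 133 in cKO, against 121, 61.8 and 165 in WT. The cKO arrays all lay inside the WT range, with a log2 difference of 0.14 (SE 0.33, adjusted p = 0.982), or 0.35 without both arrays numbered 3. Of 4 more probe sets given to Cbx3 and the pseudogene Cbx3-ps5 together, no value can be assigned to either. Their log2 fold changes lay between -0.03 and 0.05. The brightest of them, 1416884_at, read 21833, 21083 and 16302 in cKO, against 20387, 21010 and 15868 in WT. It was lower on the array numbered 3 than on the others of the group, by nearly the same amount in cKO (-0.40) and in WT (-0.38).

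That contrast within a group was larger than the genotype difference, in both groups, for 18 of the 32 probe sets. A single array set against a mean varies more than a difference of group means, so the count is a description only. No share over all probe sets is given for it or for the signs that follow. Of the 32, 15 were higher on both arrays numbered 3 than on the mean of the other arrays of their group, 8 were lower on both, and 9 had opposite signs. The median intensity of the whole array was also highest on these arrays, at 119 on cKO 3 and 113 on WT 3. On the other arrays it was 91.1 to 103, and the signs were not corrected for that. Tet1 on 1429448_s_at was higher by 0.48 on cKO 3 and 0.79 on WT 3 (log2), and Cbx5 on 1421933_at by 0.63 and 0.45. Lower on both were Cbx1 on 1436266_x_at, at -0.48 on cKO 3 and -0.24 on WT 3, and Mbd1 on 1437061_at, at -0.20 and -0.43. Dnmt3a on 1423063_at differed little, by 0.01 on cKO 3 and 0.08 on WT 3. The erythroid list lay higher on the same arrays by 2.11 and 1.78 (median of its genes), and the meninges list was at 1.32 on cKO 3 and -0.09 on WT 3. The ventral telencephalon list was at -0.14 on cKO 3 and 0.82 on WT 3. The part of these lists in these values was not tested. Without both arrays numbered 3 the groups did not overlap on 13 of 32 probe sets, where 37.5% of all probe sets then had no overlap.

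**Figure D3:**
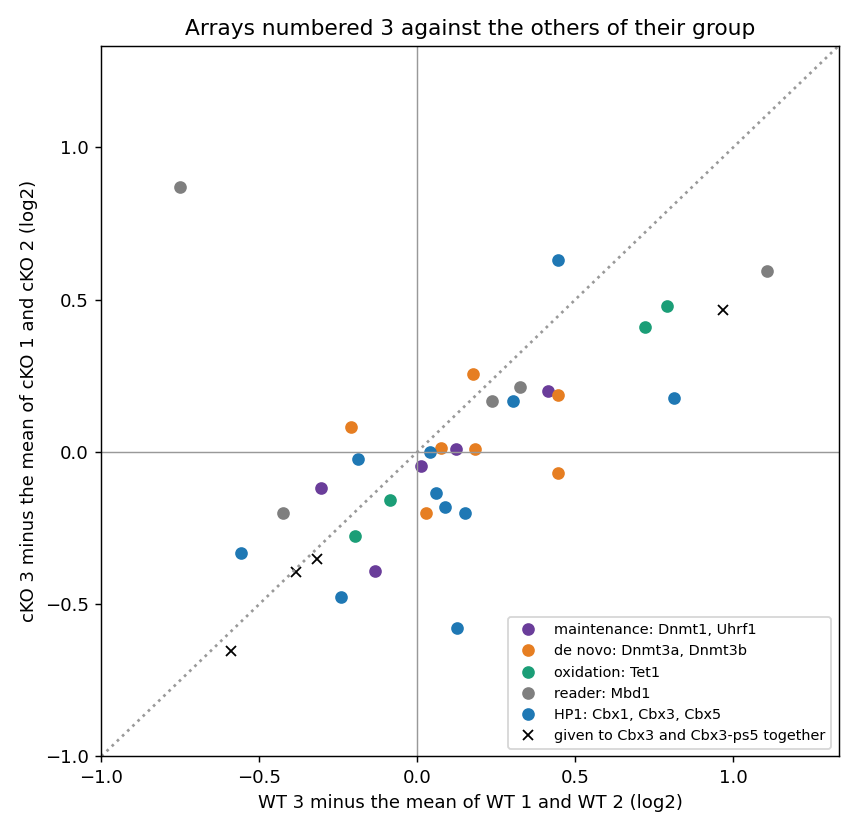
For each probe set, the array numbered 3 minus the mean of the other arrays of its group (log2), WT on the horizontal and cKO on the vertical axis, with the dotted line marking equal values. Of the 32 points 15 lie in the upper right and 8 in the lower left, and crosses mark the 4 probe sets given to Cbx3 and its pseudogene together.

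Related genes were read on the brightest probe set of each gene. On those, 0.374% of all genes passed the threshold, 8.54% had an unadjusted p under 0.05 and 15.5% had no overlap between the groups. In the writer and maintenance list, which includes cofactors of Dnmt1 and Dnmt3a, limma called 0 of 11 genes, with 0 at an unadjusted p under 0.05 and a median log2 fold change of -0.07. Hells, a chromatin remodeller needed for DNA methylation, read 1467, 1389 and 1497 in cKO, against 1500, 1770 and 1680 in WT. The groups did not overlap, although cKO 3 and WT 1 nearly met (log2 fold change -0.18, adjusted p = 0.879). Uhrf2, a relative of Uhrf1, read 1191, 1458 and 1177 in cKO, against 1061, 1157 and 1069 in WT. It also had no overlap (0.21, adjusted p = 0.865). Pcna, the replication clamp, was at -0.22 and Cdca7l at 0.19. In the TET and demethylation list 0 of 11 were called, with 0 at an unadjusted p under 0.05 and a median of 0.00. Its genes with the smallest p were the stress-induced Gadd45g at 0.29, Gadd45a at 0.25, Gadd45b at -0.23 and Cxxc4 at 0.18. In the list of other methyl-CpG readers 0 of 7 were called, with 0 at an unadjusted p under 0.05 and a median of 0.08. Mbd2 was at 0.22, Mbd6 at 0.24, Mbd3 at -0.19 and Zbtb4 at 0.10.

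Among 20 measured partners of HP1 and H3K9 methylation genes, which include Setdb1, limma called 0, where 0.374% of all genes passed. Their median was -0.03. At an unadjusted p under 0.05, against 8.54% of all genes in either direction, Setdb1 was lower and 1 gene higher in cKO. That gene was Atf7ip, which encodes a partner that stabilises SETDB1 in human cells, with 4412, 3492 and 5467 in cKO, against 2471, 2702 and 2566 in WT. Every cKO array was above every WT array, and the log2 fold change of 0.76 (SE 0.19, adjusted p = 0.326) was 0.60 without both arrays numbered 3. Morc2a, a chromatin ATPase, was at 0.29 and Ehmt2, a methyltransferase for H3 lysine 9, at -0.21. Against the same shares of all genes, 0 of 6 other chromobox genes were called, and 1 was lower at an unadjusted p under 0.05. This was Cbx7, a Polycomb reader, with 59.4, 43.7 and 53.9 in cKO, against 89.1, 90.1 and 95.4 in WT. The groups did not overlap, at -0.66 (SE 0.15, adjusted p = 0.250) or -0.65 without both arrays numbered 3, and every value was below the median of its array. The rest of the chromobox list lay above 0, with Cbx6 at 0.29, Cdyl2 at 0.16 and Cdyl at 0.24.

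Germ cell genes known as targets of promoter DNA methylation gave the only calls among these lists, and they were listed with their rise in these arrays already known. Of 18 measured, 5 rose and 0 fell, where 0.291% of all genes rose and 0.0824% fell, and the median was 0.60. Ddx4, the germ cell RNA helicase whose promoter is shown above, read 580, 825 and 600 in cKO, against 32.2, 21.8 and 32.2 in WT. The groups were far apart, with a log2 difference of 3.93 (SE 0.20, adjusted p = 0.00235). The others were Slc25a31, for a mitochondrial nucleotide carrier of germ cells, at 2.65, Mael, of the piRNA pathway, at 2.73, Tex101, a germ cell surface protein, at 1.59, and Sycp3, of the synaptonemal complex, at 2.46. Their adjusted p was at most 0.0148. In WT the mean intensities of Slc25a31, Mael and Tex101 fell short of the pseudocount of 16, and the fold changes of all 5 depend on it. With a pseudocount of 1 Ddx4 was at 4.50 and Sycp3 at 3.14, and with one of 64 they were at 2.97 and 1.56. The other 3 were at 2.78 to 4.52 with the lower pseudocount and at 0.72 to 1.53 with the higher. With 1 array left out at a time, Ddx4 passed in 6 of 6 fits, Slc25a31 in 5 (not without WT 1) and Mael in 1 (without WT 2). Tex101 and Sycp3 passed in 0 of these fits, and none of the 5 passed without both arrays numbered 3 (adjusted p from 0.135 to 0.257). In that last fit the 5 log2 fold changes were 1.58 to 4.05. With the replicate number as a block none of the 5 passed either (adjusted p from 0.0805 to 0.121). Mael (0.107) and Sycp3 (0.0690) also missed the threshold on adjusted p with a pseudocount of 1, and Tex101 (0.0539) with trend and robust eBayes. With the arrays numbered 3 kept and fitted as a block, all 5 passed (limma adjusted p from 0.0162 to 0.0331). All 5 also passed in a limma fit on the brightest probe set of each gene alone (adjusted p from 0.00150 to 0.00789). The writers, maintenance factors and readers above gave 0 calls, which lists that short would mostly give at the share of all genes. These 0 calls cannot be set against the 5, whose genes were listed with their rise known. A test of the difference between the lists was not made.

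**Figure D4:**
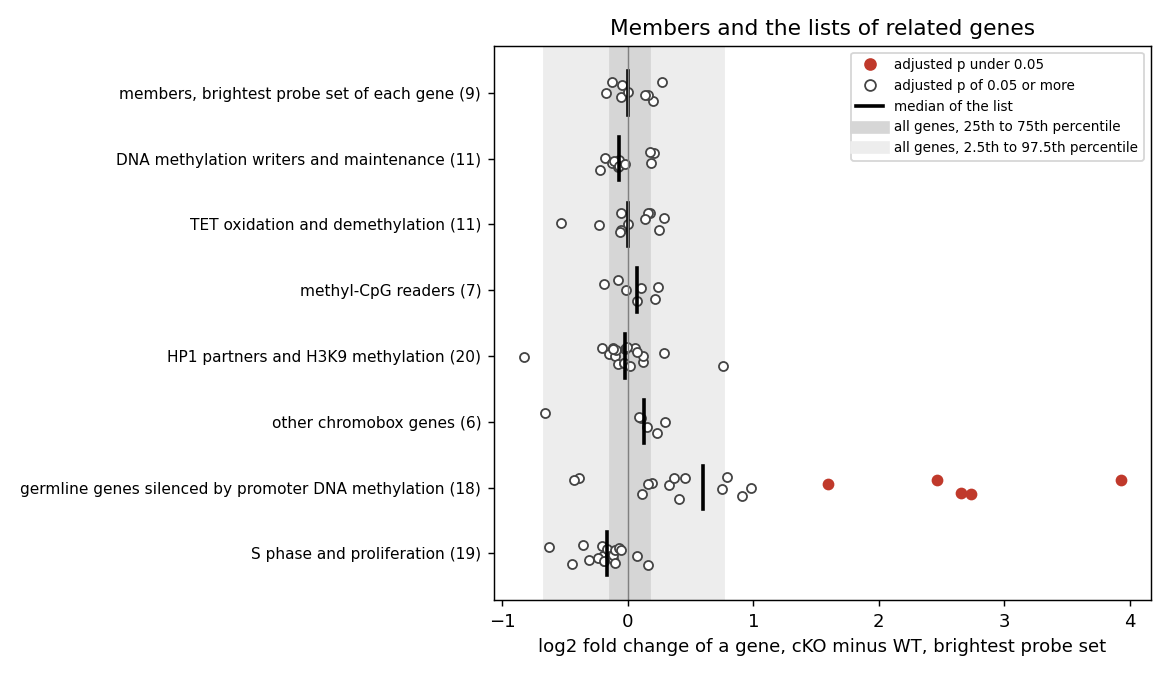
Log2 fold change (cKO minus WT) of each gene on its brightest probe set, for the 9 members and for each list with its number of measured genes. Bars mark list medians, red points passed the threshold, and grey bands span all genes, and the 5 red points are all in the germ cell list.

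The genes closest in pattern were sought among 9096 others (9097 for Cbx3) with a mean at or above the median of genes. Closeness was the root mean square difference of log2 values over the 6 arrays, each gene centred on its own mean. The nearest to Dnmt1 were Uqcrq (0.03) and Fam98b (0.04), and the nearest to Uhrf1 were Kbtbd7 (0.03) and Brd7 (0.03). For Dnmt3a they were Zfp60 (0.04) and Prr14l (0.04), and for Dnmt3b Frmd5 (0.03) and Dcc (0.06). Zfp60 read 1247, 1361 and 1313 in cKO, against 1148, 984 and 1111 in WT, so like Dnmt3a on its brightest probe set it had no overlap. For Tet1 they were Kin (0.02) and Nrcam (0.03), for Mbd1 Hspb11 (0.04) and Ccng1 (0.05), and for Cbx1 Spag5 (0.02) and Nrbf2 (0.02). For Cbx5 they were Gins3 (0.03) and Mfsd5 (0.03). Cbx3, read on its own probe set, had no neighbour as near, with Adam15 at 0.09 and Ubap2 at 0.12. Its own values also varied more over the 6 arrays (SD 0.39, log2) than those of the other members (0.05 to 0.20). The distances were not scaled to that spread. These are the smallest of 9096 or more differences over 6 arrays and describe likeness only.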

How the data were processed

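RNA of 6 embryos was measured on single-colour Affymetrix arrays from 250 ng of total RNA each. The authors deposited linear array intensities, 1 per probe set and array, made with the Affymetrix Expression Console per the submitters' processing notes. Its version and how probes were summarised are not stated in those notes. Means after trimming 2% at each end were 497.2 to 497.7 on every array, so the deposited intensities share a scaling. There are no detection calls, and the number of arrays limits the precision.

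Groups come from the sample titles. The functions lmFit and eBayes of limma 3.58.1 (R 4.3.3) were applied to all 45037 probe sets, with genotype as the only term, on log2(intensity + 16). No further scaling was made, because array medians differed by less than 0.5. On that log2 scale they ran from 6.74 (WT 2) to 7.08 (cKO 3), where the median absolute fold change of the members was 0.15. The pseudocount shrinks fold changes of dim probe sets. Adjusted p is Benjamini-Hochberg with a threshold of 0.05. The fit was tested on simulated data. No source used here says whether embryos shared a litter, and p-values measure only the spread between these arrays.

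The platform annotation gave 1 gene to 34945 probe sets, several to 932 and none to 9160, and 0 symbols needed an update from RefSeq (GRCm38.p6). The brightest probe set of a gene has its highest mean log2 value. Named are all probe sets of the 9 genes and of Setdb1, the called genes and up to 4 with the smallest p of each related list, and the 2 genes closest to each member. The members and lists were chosen with earlier results of these data known. Genes of those lists that the annotation does not give to a probe set alone were not analysed here.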

Additional observations from a re-analysis of the deposited data

How the results depend on the processing

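In all 18 alternatives 0 of the member probe sets passed the threshold, with a lowest adjusted p of 0.304 (Dnmt3b, dim probe sets left out). Over 541 recomputed member values, 502 kept their direction and side of the threshold and 39 changed direction, on 13 probe sets; the cause was not tested. With quantile normalization 1430837_a_at (Mbd1) was at -0.057 and 1454636_at (Cbx5) at 0.020. Centred on array medians, 1423065_at (Dnmt3a) was at -0.012, 1417968_a_at (Mbd1) at -0.025 and 1430837_a_at at -0.041, and with a pseudocount of 64 the last was at -0.034. With array weights 1423064_at (Dnmt3a) was at -0.0076, 1430837_a_at at -0.46, 1422935_x_at (Cbx1) at 0.0033, 1431773_at (Cbx1) at 0.014 and 1454636_at at 0.0065. Without both arrays numbered 3 the values were -0.028 for 1423064_at, -0.53 for 1430837_a_at, 0.0027 for 1436266_x_at (Cbx1), 0.19 for 1422935_x_at and 0.045 for 1454636_at. Leaving out 1 array gave -0.066 to 0.19 for 1423065_at, -0.0012 to 0.16 for 1423064_at, -0.13 to 0.0048 for 1455425_at (Tet1), -0.37 to 0.058 for 1429448_s_at (Tet1), -0.074 to 0.93 for 1419897_at (Tet1), -0.051 to 0.13 for 1417968_a_at, -0.32 to 0.12 for 1453678_at (Mbd1) and -0.32 to 0.59 for 1430837_a_at. It gave -0.19 to 0.084 for 1436266_x_at, -0.24 to 0.15 for 1422935_x_at, -0.20 to 0.18 for 1431773_at, -0.20 to 0.41 for 1432628_at (Cbx3) and -0.061 to 0.10 for 1454636_at.

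Over all probe sets 101 were called higher and 23 lower in cKO, or 81.5% higher. Other counts were 97 and 41 (70.3% higher) centred on medians, 41 and 7 with a pseudocount of 1, 149 and 56 with one of 64, and 166 and 86 without dim probe sets. They were 174 and 83 with trend and robust eBayes, 124 and 43 with array weights, 70 and 44 in the gene table, and 8 and 0 without both arrays numbered 3, where 3793 had an unadjusted p under 0.05. With 1 array left out they were 19 to 34 higher and 0 to 2 lower. The replicate block gave 7 and 0, with 4562 at an unadjusted p under 0.05. Deviations of same-numbered arrays correlated at 0.08, 0.19 and 0.41 across probe sets, and cKO 1 correlated better with WT 2 (0.16) than with WT 1, so the numbers were not taken as pairs. The member median was -0.056 when centred on medians and -0.070 to 0.035 with 1 array left out. The TET list median was 0.14 without dim probe sets and -0.042 to 0.12 with 1 array left out, and that of the methyl-CpG readers -0.010 to 0.19. The germ cell list median was 1.36 with a pseudocount of 1, 0.24 with one of 64. Without dim probe sets 1 of its 18 genes was left, Ddx4, which is bright in cKO alone, so the 3.93 found there is that gene's fold change and no list median. The number of arrays and the dimness of some probe sets limit what these arrays can show.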
